A study of Homo sapiens with 33 samples.

Results

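The 37 genes described here carry out DNA repair and DNA replication, and they were examined for strong binding of MITF, a transcription factor best known as the main regulator of melanocyte identity. They were taken from a fixed list of names, out of 19974 protein-coding genes on the autosomes and the X chromosome. A gene was called strong in a library when the library's 10000 highest-ranked peaks included a summit within 5000 bp of either end of the RefSeq gene on hg38. Ranks followed the −log10 q that the peak caller had assigned to each summit, with rank 1 the highest. The data came from CUT&Tag, in which an antibody tethers a transposase that cuts and tags the nearby DNA, and the antibody recognised an HA tag. All libraries were from UACC-257, a human line established from melanoma, and every library carried the genotype label MITF knockdown and the treatment label doxycycline. The 33 libraries formed 11 groups of 3, which the titles name WT, Empty, Y253A, Q261A, N278D, K243A, G244E, E260A, A264C, rep263A and rep217A. WT and the 9 variants are forms of MITF that the cells expressed, and the group titled Empty served as the background. The concentration and duration of doxycycline, the number of clones and the level of each MITF form are not given in the sources used here. Replicates 2 and 3 had identical lists in rep217A and again in rep263A. Each such pair entered once, so that 31 distinct libraries were used and n = 2 for rep217A and rep263A. Separate cultures are not mentioned in the labels, and p-values therefore measure only the spread between these libraries.

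MITF belongs to the basic helix-loop-helix leucine zipper family, binds DNA as a dimer, and recognises E-box sequences, chiefly CACGTG and CATGTG. It is known for driving pigmentation genes, and genes of the cell cycle, DNA replication and DNA repair are also among its described targets. Homologous recombination copies an intact sister chromatid to mend a broken chromosome. The Fanconi anaemia pathway unhooks cross-links between strands. Nucleotide excision repair removes bulky lesions such as those made by ultraviolet light, the main mutagen of melanocytes. Mismatch repair corrects copying errors, and base excision with single-strand break repair handles damaged bases and nicks.

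The depth of the lists differed between groups. The background pileup recovered from the deposited values, a measure of tags per position, was 1.08 to 1.20 in the WT libraries. It was 0.697 to 1.49 in A264C, E260A, N278D, Q261A and Y253A, 0.427 to 0.487 in rep263A, 0.276 to 0.348 in rep217A, 0.132 to 0.244 in K243A and 0.108 to 0.151 in G244E, and at most 0.03 in Empty. The weakest of the 10000 highest summits held 81 to 85 stacked tags in WT, 8 to 11 in G244E and 2 in Empty. In Empty only 5087 to 8330 peaks ranked above a block of 13673 to 16429 tied peaks from which the rest were filled by the lesser columns. In WT, 7 of 10 melanocyte markers were strong in every library, against 0 of 8 keratinocyte, 0 of 8 hepatocyte and 0 of 8 lymphoid markers. The same cells had 4 melanocyte markers strong in every library in rep217A, 3 in K243A, 1 in G244E and 0 in Empty, and 7 or 8 in the other variants. Of the lymphoid markers, 2 were strong in every library of E260A and of rep263A, 0 in K243A, and 1 in each other variant and in Empty. In E260A, 1 keratinocyte marker was also strong in every library. In these bulk libraries, fewer bound cells and weaker binding per cell cannot be told apart.

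Binding near the members ranged from constant to never strong. PCNA, the sliding clamp that holds polymerases on DNA, was strong in all 31 libraries. POLD1, the catalytic subunit of the lagging-strand polymerase delta, and PMS2, the endonuclease partner in mismatch repair, were strong in 30. At the other end, RAD51C, FANCD2, LIG4, TERT, POLE, MCM2, RFC1 and RFC3 were strong in none. Counting POLD1 and PMS2, 28 members were strong in some but not all libraries. The median member was strong in 5 libraries against 9 for the 96 other repair and replication genes and 1 for all protein-coding genes. Of all protein-coding genes, 45.1% were never strong and 4.31% were strong in every library, against 2.7% of the members.

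**Figure D1:**
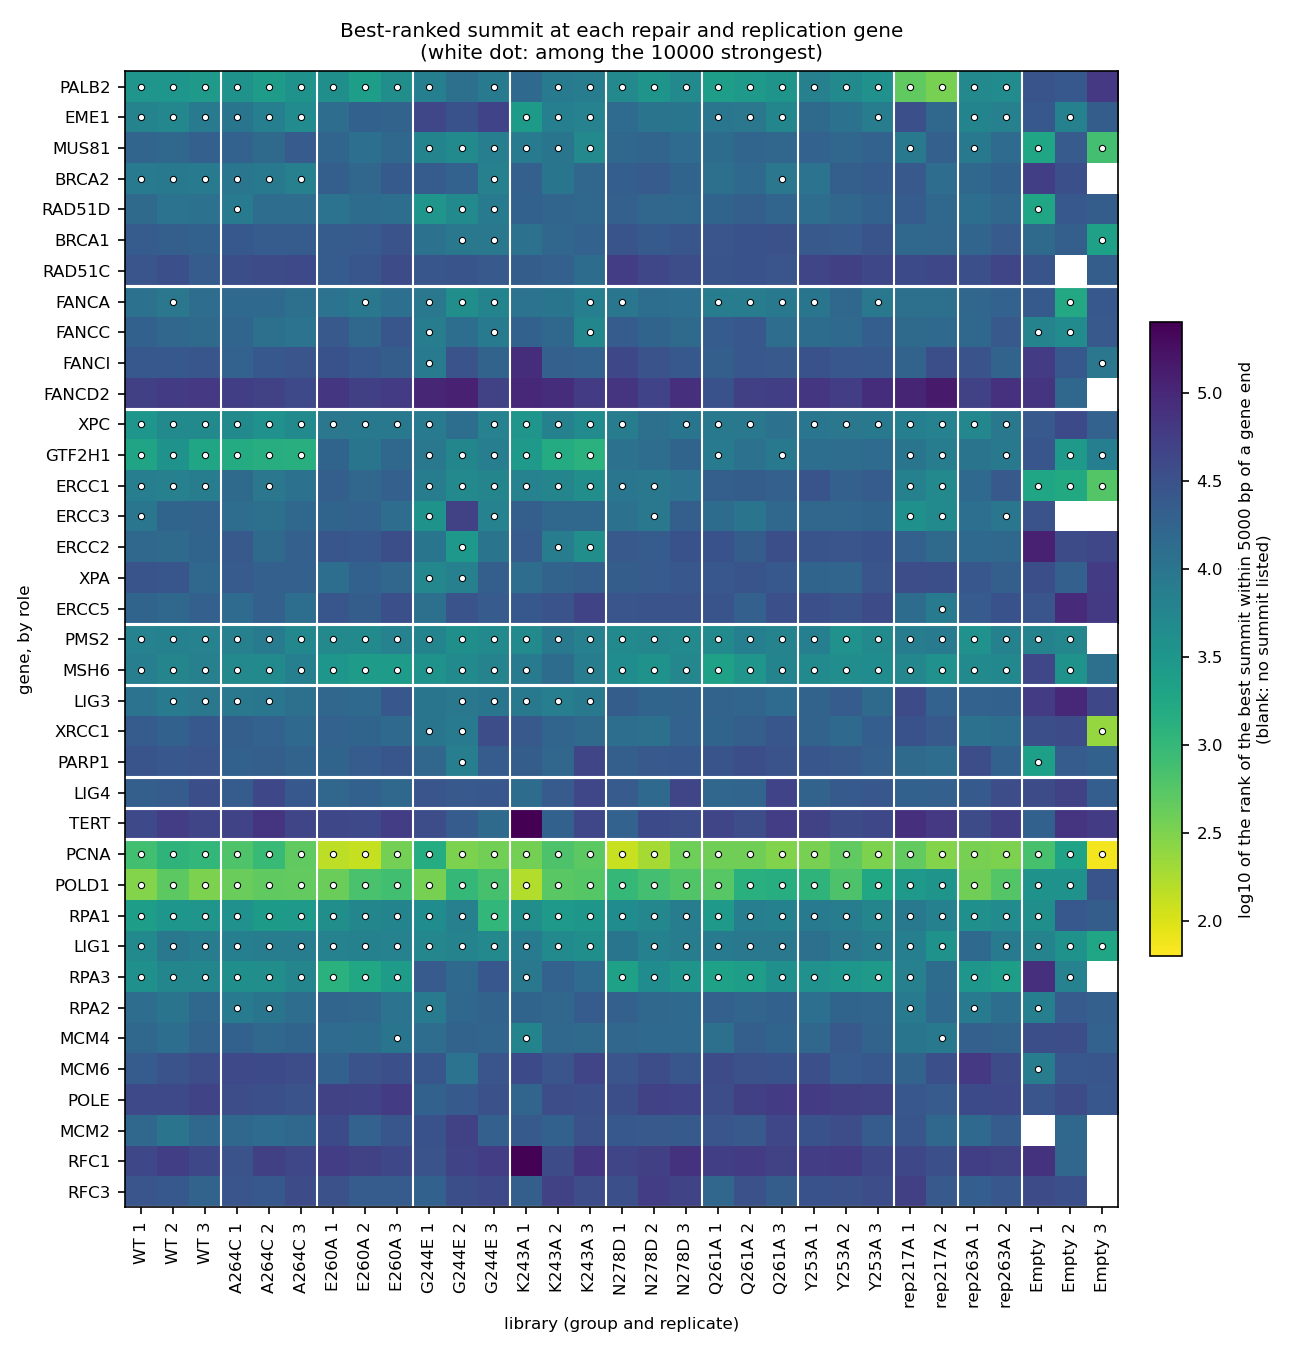
Heat map of the log10 rank of the best summit within 5000 bp of a gene end, for the 37 genes in rows by role and the 31 distinct libraries in columns, with a white dot where that rank was within 10000. PCNA and POLD1 form the brightest rows, whereas FANCD2, TERT and RFC1 stay dark in every group.

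In WT, 13 members were strong in all 3 libraries. These included 5 replication genes, PCNA, POLD1, RPA1, RPA3 and LIG1. The other 8 were the recombination genes BRCA2, PALB2 and EME1, the excision repair genes XPC, ERCC1 and GTF2H1, and the mismatch repair genes MSH6 and PMS2. This was 35.1% of the members, beside a background of 21.3% of all protein-coding genes and 38.5% of 96 other repair and replication genes. The Fanconi anaemia, base excision and end joining members had none among the 13.

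The replication genes POLD1 and PCNA had the highest mean WT ranks of the members. At POLD1 the WT ranks were 293, 514 and 324, with a fold enrichment over local background of 17.8 ± 1.07 (SD, n = 3). At PCNA they were 786, 1133 and 1042, with an enrichment of 19.8 ± 0.88 (SD, n = 3). Both genes were therefore near some of the highest-ranked peaks in every WT library. In Empty, however, PCNA was also strong in all 3 libraries and POLD1 in 2. PCNA ranked 693, 2087 and 73 in Empty, and POLD1 ranked 3558, 3505 and 28802. RPA1, the large subunit of the single-strand binding complex RPA, ranked 2505, 3276 and 3284 in WT and 4052, 25889 and 21707 in Empty. LIG1, the ligase that seals Okazaki fragments, ranked 4958, 9086 and 7813 in WT and 6242, 3503 and 1892 in Empty. For LIG1 and PCNA, strong peaks were thus also present in all 3 Empty libraries. RPA3, the small RPA subunit, ranked 3883, 5505 and 5554 in WT and is described further below.

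Among the recombination genes, PALB2, which links BRCA1 to BRCA2, ranked 3333, 3207 and 2897 in WT with an enrichment of 23.3 ± 0.559 (SD, n = 3). Its ranks in Empty were 29032, 25625 and 63331, outside the range of every WT library. PALB2 was strong in 26 of 31 libraries, and its highest ranks were 484 and 343 in the 2 rep217A libraries. Among the excision repair genes, XPC, the sensor that finds helix-distorting lesions, ranked 3180, 4985 and 4943 in WT and 25189, 38828 and 18503 in Empty, and was strong in 25 libraries. In mismatch repair, MSH6, which recognises mispaired bases, ranked 7355, 5823 and 6867 in WT. In E260A it ranked 3183, 2662 and 2661, above every WT library, with both groups inside the strong range. PMS2 ranked 6363, 6655 and 6454 in WT and between 3747 and 8836 in every other library except Empty replicate 3, in which no peak was listed. At this limit PMS2 and MSH6 were therefore the repair genes most often strong across the MITF forms. Outside Empty, MSH6 missed the strong range only in K243A replicate 2, at rank 13234. With the 5000 highest peaks, PMS2 was strong in 10 libraries and MSH6 in 16. With peaks ranked by fold, PMS2 was strong in 27 and MSH6 in 12.

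Against Empty, WT had more strong members per library, 14.3 ± 0.577 (SD, n = 3; range 14 to 15) against 10.3 ± 2.08 (SD, n = 3; range 8 to 12). For all protein-coding genes the shares were close, 24.2% in WT and 23.8% in Empty. BRCA2, PALB2 and XPC were strong in every WT library and in no Empty library, which was 3 of 25 members strong in either group, beside 7.41% of all protein-coding genes. No member was strong in every Empty and no WT library, beside 2.23% of all genes. With 3 libraries a side the smallest exact p is 0.1, so these counts carry no test. The difference of 4 strong members was 0.333 with all tied peaks kept, 0.667 when peaks were ranked by fold and 11.3 with the 20000 highest peaks, and it changed sign to -0.333 with the 5000 highest.

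Fewer members were strong in E260A, N278D and Y253A than in WT, and more in G244E. The WT mean of 14.3 was matched by K243A, 14.3 ± 1.53 (SD, n = 3), and nearly by A264C, 14 ± 1.73 (SD, n = 3). E260A and N278D each had 9.67 ± 0.577 (SD, n = 3) and Y253A had 9.67 ± 1.15 (SD, n = 3). The highest of these 9 libraries had 11 strong members and the lowest WT library had 14, so the groups did not overlap. Over all protein-coding genes these groups did not overlap with WT either. That share was 24.1% to 24.3% in the WT libraries and at most 23.4% in E260A, 21.4% in N278D and 20.6% in Y253A. Q261A had 11.7 ± 0.577 (SD, n = 3), rep263A 11.5 ± 0.707 (SD, n = 2) and rep217A 13.5 ± 0.707 (SD, n = 2). G244E stood above WT with 18 ± 1 (SD, n = 3), its lowest library having 17. In the same G244E libraries only 1 to 4 of the 10 melanocyte markers were strong, against 7 in each WT library, and the part of this difference between the lists in the members' count was not tested.

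The share of all protein-coding genes that were strong differed from WT in the same direction in 7 of the 9 variants. It was 24.2% in WT, 22.7% in E260A, 20.4% in N278D, 20.1% in Y253A, 21.2% in Q261A, 22.3% in rep217A, 22.1% in rep263A and 28.6% in G244E. In K243A it was higher, 27%, with an equal mean number of strong members, and in A264C it was 24.4% with 0.333 fewer members. In G244E, 48.6% of the members were strong, and in E260A 26.1%. When the lists other than Empty were thinned to the depth of the shallowest of them, the mean number of strong members was 13.9 in WT, 10.8 in E260A, 11 in N278D, 9.6 in Y253A and 17.1 in G244E. E260A, N278D and Y253A thus stayed below WT, and G244E above it. The thinned share of all protein-coding genes differed from WT in the same directions. It was 24.1% in WT, 22.5% in E260A, 20.6% in N278D, 20.3% in Y253A and 28.4% in G244E. With only the 5000 highest peaks in use, however, G244E minus WT turned from 3.67 to -0.667 members. The difference from WT shrank in that setting from -4.67 to -1 in E260A and to -1.33 in N278D and Y253A.

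**Figure D2:**
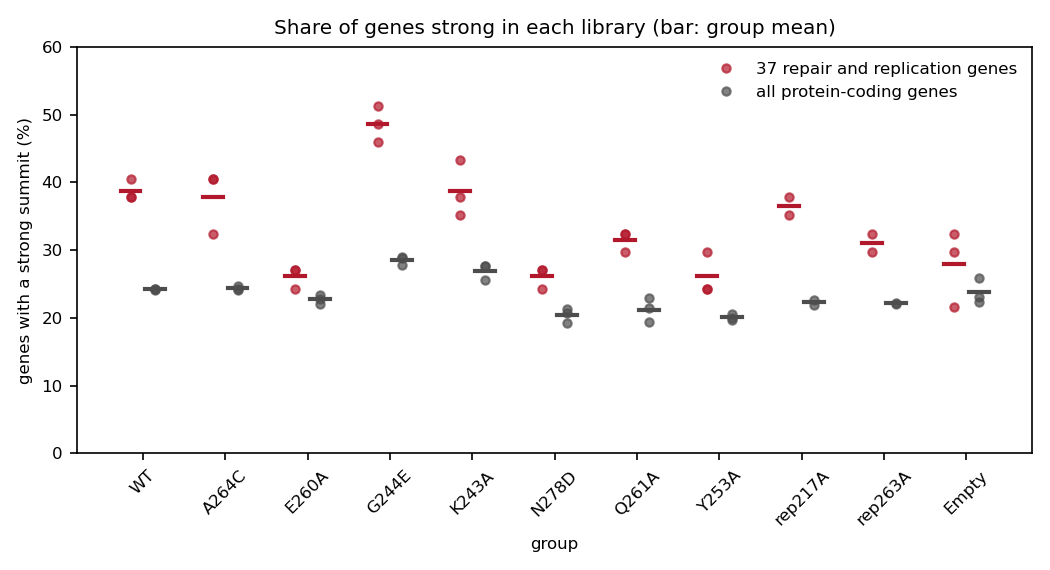
Percentage of the 37 members (red) and of all protein-coding genes (grey) with a strong summit, 1 point per distinct library and a bar at each group mean. The G244E points lie at 45.9% to 51.4% of the members, above all WT points at 37.8% to 40.5%.

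Members strong in every library of a group numbered 12 in A264C (21.6% of all genes), 11 in G244E (21% of all genes), 11 in K243A (20.4%), 11 in rep217A (18.4%), 10 in Q261A (16.6%), 9 in E260A (18.6%), 9 in rep263A (19.2%), 8 in Y253A (17%) and 7 in N278D (16.8%). In Empty there were 3, ERCC1, LIG1 and PCNA, beside 8.14% of all genes. PCNA, PMS2, POLD1 and RPA1 were strong in every library of WT and of all 9 variants. FANCA, LIG3, ERCC3, MUS81 and RAD51D reached every library of some variant without doing so in WT, FANCA in G244E and Q261A, LIG3 in K243A and ERCC3 in rep217A.

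Which genes differed among the groups was tested with an exact permutation test of the group labels, run on the strong or not strong status of each gene over all 31 libraries. Benjamini-Hochberg adjustment covered the 10105 protein-coding genes that were strong in at least 1 but not every library. Among the 28 members tested, 6 passed an adjusted p of 0.05, which is 21.4%, beside a background of 15% of all genes tested. They were EME1 and MUS81, the subunits of a structure-specific nuclease, BRCA2, a mediator of recombination, ERCC1 and GTF2H1 of excision repair, and RPA3. At an unadjusted p of 0.05, 2991 genes and 9 members passed, the further 3 members being PALB2, RAD51D and LIG3. These calls did not survive a smaller or shallower set. With any 1 replicate number left out, the exact permutation test with Benjamini-Hochberg adjustment called 0 genes (978 to 1627 at an unadjusted p of 0.05, 4 or 5 of them members), and at the common depth 81 to 102 genes and 0 or 1 member passed.

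EME1 (chr17:50373229-50381483, plus strand) had the lowest adjusted p of the members. Its ranks were 6205, 5413 and 8136 in WT, 13021, 19114 and 17844 in E260A, and 43609, 31199 and 48149 in G244E. All 3 G244E libraries were far below WT. In K243A the ranks were 2730, 6944 and 6271, in the range of WT or above it. EME1 was strong in 16 libraries (adjusted exact p = 0.00719, and 0.00241 to 1 over the other settings). The strong summit lay 8286 to 8415 bp past the RefSeq start in WT, at the far end of the gene, and not at its promoter. The best summit held 160, 159 and 141 stacked tags in WT and 5 in each G244E library, where only replicate 1 had it at that far end. EME1 was also strong in 1 of 3 Empty libraries. At the common depth EME1 was strong on average in 2.2 of 3 WT libraries and 0 of 3 G244E libraries.

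MUS81 (chr11:65859674-65867653, plus strand), the catalytic partner of EME1, ran the other way. Its WT ranks were 16983, 15580 and 19718, never strong. In G244E they were 5966, 4770 and 7303, and in K243A 8561, 10000 and 5006. MUS81 was thus strong in all libraries of both groups, with K243A replicate 2 exactly at the last admitted rank (adjusted exact p = 0.0133 over 10 strong libraries). With tied peaks left out that library dropped and the adjusted exact p became 0.0532, and over all other settings it ran from 0.00614 to 1. The Empty libraries ranked 1840, 22918 and 763, so peaks of this rank were also present in Empty. The enrichment in WT, 5.64 ± 0.478 (SD, n = 3), was the lowest of the 37 genes. At the common depth MUS81 was strong on average in 0.6 WT, 3 G244E, 2.2 K243A and 2 Empty libraries. EME1 and MUS81 therefore differed in direction in G244E, and both were strong throughout K243A.

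GTF2H1 (chr11:18322567-18367045, plus strand), a core subunit of the TFIIH complex that opens DNA for repair and transcription, ranked 1965, 3727 and 1939 in WT. A264C ranked 1536, 1456 and 1328, and K243A 2902, 1546 and 1271. Of the libraries with a MITF form, these 9 ranked highest at this gene. E260A ranked 17609, 10075 and 15244, N278D 10982, 13186 and 17329, and Y253A 12610, 12908 and 13833. GTF2H1 was strong in 0 of these 9 libraries, with E260A replicate 2 just outside the limit (adjusted exact p = 0.0182, and 0.00267 to 1 over the other settings). In Empty, GTF2H1 was strong in 2 of 3 libraries, so strong peaks near it were also present in the background. At the common depth GTF2H1 was strong on average in 3 of 3 libraries in WT, A264C and K243A, in 0.6 in E260A and in 1.2 in N278D and Y253A.

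ERCC1 (chr19:45407334-45451547, minus strand), the partner of the nuclease XPF, ranked 7325, 6742 and 7549 in WT. It ranked 20507, 21591 and 19608 in Q261A, 28704, 19555 and 22348 in Y253A, and 20473, 16547 and 20015 in E260A. None of these 9 libraries reached the WT range (adjusted exact p = 0.00804, and 0.000116 to 0.348 over the other settings that could test it). In Empty, however, ERCC1 ranked 1843, 1651 and 580, above every library with a MITF form. The WT summits lay 4355 to 4384 bp upstream of the RefSeq start. Counting summits anywhere in the gene body, ERCC1 was strong in 31 of 31 libraries, so its call depended on the window at the gene ends.

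BRCA2 (chr13:32315077-32400268, plus strand) was strong in 8 libraries, 6 of them in WT and A264C. Its WT ranks of 8496, 8864 and 8521 were close together and near the limit of 10000. A264C ranked 9679, 8762 and 6853. E260A ranked 20700, 16392 and 24118, and Empty ranked 54718 and 32960 with no peak listed in replicate 3. Outside WT and A264C, only G244E replicate 3 (rank 6758) and Q261A replicate 3 (rank 9261) were strong (adjusted exact p = 0.0245, and 0.0223 to 0.507 over the other settings that could test it). With the 5000 highest peaks BRCA2 was strong nowhere, and at the common depth it was strong on average in 1.8 WT and 0.4 E260A libraries.

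RPA3 (chr7:7636518-7718607) was strong in 23 libraries and weak in G244E. Its ranks there were 23244, 14640 and 26332, against 3883, 5505 and 5554 in WT. E260A ranked 1245, 1790 and 2556, above every WT library. K243A, with 8959, 18587 and 13859, lay below WT without overlap. The adjusted exact p was 0.0367, and it ran from 0.00574 to 1 over the other settings, the permutation within replicate numbers giving 0.0579. RPA3 was also strong in 1 of 3 Empty libraries. At the common depth RPA3 was strong on average in 2.6 WT, 2.8 E260A and 0 G244E libraries. In all 23 libraries the best strong summit at RPA3 was nearer the end of UMAD1 than an end of RPA3.

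**Figure D3:**
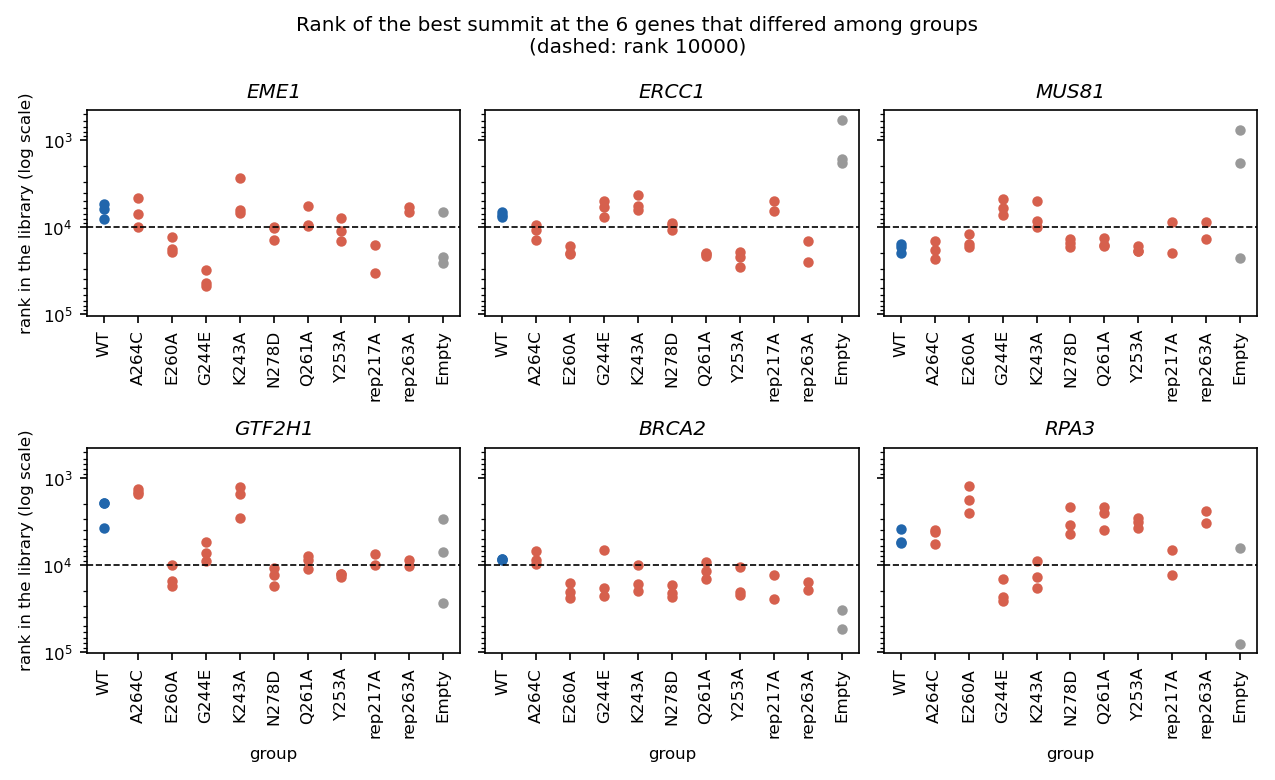
Rank of the best summit (log axis, inverted so that strong binding is at the top) at the 6 members that passed the adjusted test, 1 point per distinct library, with WT in blue, variants in red, Empty in grey and a dashed line at rank 10000. EME1 and RPA3 drop below the line in all 3 G244E libraries, where MUS81 sits above it.

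Set against WT alone, 18 losses and 3 gains of members without overlap occurred over the 9 variants. A loss means strong in every WT library and in no library of the variant, and a gain the reverse. A member counts once for each variant in which it was lost or gained. These counts carry no test, for the reason of sample size given above. E260A lost BRCA2, EME1, ERCC1 and GTF2H1, 4 of the 17 members strong in either group, beside 6.75% of all genes. N278D lost BRCA2, EME1 and GTF2H1, 3 of 16, beside 9.52%. Y253A lost BRCA2, ERCC1 and GTF2H1, 3 of 16, beside 9.41%. All comparisons share the same 3 WT libraries, so they are not independent of each other.

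The other variants lost fewer. G244E lost EME1 and RPA3, 2 of 26, beside 3.49% of all genes. K243A lost BRCA2 (1 of 20, beside 2.02%) and Q261A lost ERCC1 (1 of 16, beside 4.71%). In rep217A BRCA2 and EME1 were lost (2 of 20, beside 12.5%), and in rep263A BRCA2 and ERCC1 (2 of 18, beside 6.61%). A264C lost none of 18, beside 0.4%. BRCA2 was lost in 6 of the 9 variants, the most of any member.

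Gains were limited to G244E and K243A. G244E gained MUS81 and RAD51D, 2 of 26 members (7.69%), beside 6.54% of all genes. K243A gained MUS81, 1 of 20 (5%), beside 3.72%. These shares of the members were near those of all genes. No member was gained in rep217A (7.4% of all genes), E260A (4.15%), Y253A (2.73%), N278D (2.7%), rep263A (2.42%), Q261A (1.24%) or A264C (0.609%). RAD51D, a recombination factor, ranked 14501, 10691 and 11291 in WT and 3370, 4754 and 8360 in G244E (adjusted exact p over all groups = 0.117). In G244E replicates 1 and 2 its summit lay at the far end of the gene, nearer RFFL, so the peaks that made this gain were not all at the same place. When the lists were thinned to a common depth, the losses of members summed over the variants numbered 7 in place of 18.

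**Figure D4:**
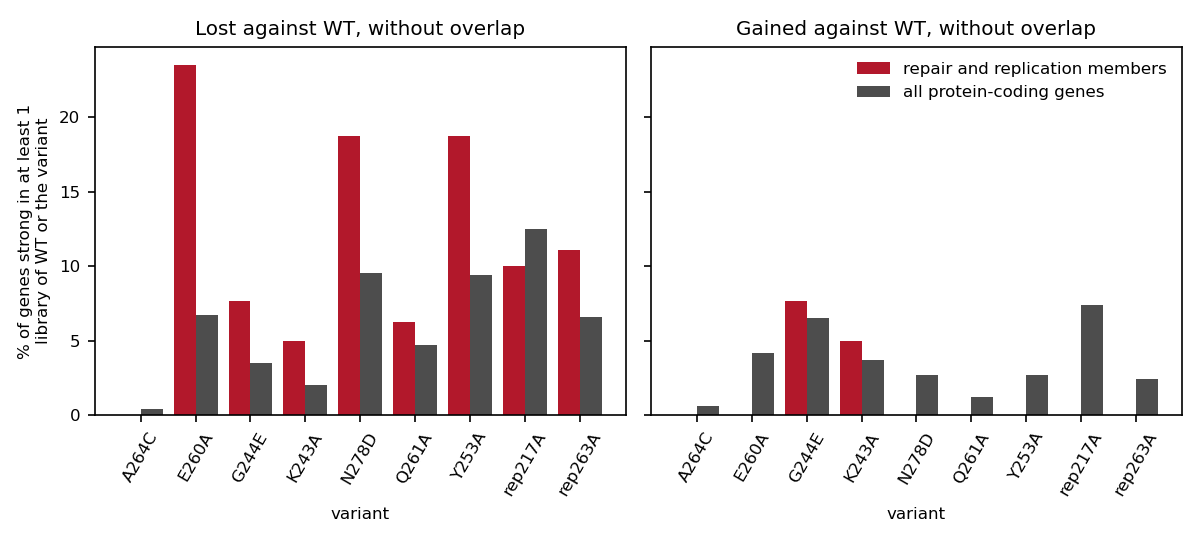
Percentage of genes lost (left) or gained (right) against WT without overlap, of those strong in at least 1 library of WT or the variant, for the members (red) and all protein-coding genes (grey). The members' bar is highest in E260A, where 4 of 17 were lost, and absent in A264C.

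The remaining recombination and Fanconi anaemia genes had lower WT ranks at their ends. BRCA1, the recombination scaffold, ranked 22687, 20484 and 19371 in WT and was strong in 3 libraries, 2 of G244E and 1 of Empty. These ranks describe only the outermost ends of the RefSeq span, and other starts inside the gene were not used. With summits anywhere in its body counted as well, BRCA1 was strong in 22 libraries, including 3 of 3 in WT. RAD51C, a further recombination factor, was never strong, with ranks from 13479 to 55349. FANCA, a core complex subunit of the Fanconi pathway, was strong in 13 libraries, and its WT ranks of 11175, 9371 and 13086 lay around the limit. It was strong in all libraries of G244E, at 9089, 4120 and 5957, and of Q261A, at 7615, 7468 and 8824. FANCC, another core subunit, was strong in 5 libraries and FANCI, which forms a monoubiquitinated clamp with FANCD2, in 2. FANCD2 had the weakest WT binding of the family, at ranks 52847, 58876 and 64317.

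Among the other excision repair genes, ERCC3, a TFIIH helicase, was strong in 7 libraries. These included both of rep217A, at ranks 3870 and 4833, and only replicate 1 of WT, at 9833 against 17530 and 17701. Its summit sat at the far end of the gene, 38816 to 38821 bp from the start in WT. ERCC2, the other TFIIH helicase, was strong in 3 libraries, at 3058 in G244E replicate 2 and at 7720 and 4236 in K243A. XPA, which verifies the lesion, was strong in 2 libraries, both G244E, at 5476 and 6853. ERCC5, the nuclease that cuts on the 3′ side, was strong in 1 library of rep217A. None of these 4 genes passed the adjusted test.

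In base excision and nick repair, LIG3, the ligase that works with XRCC1, came nearest to the threshold (adjusted exact p = 0.0562, 9 strong libraries). Its WT ranks were 10575, 7982 and 9422, those of K243A 8901, 7313 and 8858, and those of A264C 9000, 9726 and 11869. All 9 strong libraries were in WT, A264C, K243A and G244E, and in the other groups the best rank was 13896. XRCC1, the scaffold of this pathway, was strong in 3 libraries, 2 of them G244E, and PARP1, the nick sensor, in 2. LIG4, the ligase of end joining, ranked 20248, 22855 and 34283 in WT and TERT, the catalytic subunit of telomerase, 40154, 56434 and 44824. Neither was strong anywhere, Empty included.

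The helicase and clamp loader genes of replication were bound weakly in comparison with PCNA and POLD1. MCM2, a subunit of the replicative helicase, was never strong, although WT replicate 2 missed the limit at 10498. MCM4 was strong in 3 libraries and MCM6 in 1, an Empty library. Their WT ranks were 15405, 12727 and 18193 for MCM4 and 22413, 30416 and 34942 for MCM6. POLE, the catalytic subunit of the leading-strand polymerase, ranked 40121, 40679 and 46103 in WT. RFC1 and RFC3, subunits of the loader that places PCNA on DNA, had best ranks of 16334 and 16475. RPA2, the middle subunit of RPA, was strong in 6 libraries but in no WT library, with 10463 as its best WT rank. At this limit the 3 RPA subunits thus differed, RPA1 being strong in 29 libraries, RPA3 in 23 and RPA2 in 6. This order depended on the setting. When each summit counted only for its nearest gene, RPA1 and RPA3 were each strong in 2 libraries and RPA2 in 6. With the 20000 highest peaks RPA1 was strong in 29, RPA3 in 27 and RPA2 in 29.

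Where a start was given, most of the members' best strong summits lay near it, and many strong summits were shared with a neighbouring gene. Over all libraries there were 385 strong pairs of member and library. In 292 of the 351 pairs with a start in the promoter table (83.2%) the best summit was within 500 bp of the start. The rule itself admitted only summits within 5000 bp of a gene end. No such share was computed for all protein-coding genes, so whether this closeness is particular to the members was not tested. In 157 of the 385 pairs (40.8%) the best summit was nearer the end of another protein-coding gene. For 10 members strong in every WT library, a neighbour was nearer in at least 1 strong library. It was nearer in most for CDS2 (PCNA, 30 of 31), SMYD4 (RPA1, 27 of 29), AIMP2 (PMS2, 27 of 30) and UMAD1 (RPA3, 23 of 23). The same held for ZAR1L (BRCA2, 8 of 8), LSM3 (XPC, 17 of 25) and HPS5 (GTF2H1, 12 of 19). The neighbour was nearer in few for DCTN5 (PALB2, 2 of 26), PLA2G4C (LIG1, 2 of 28) and LRRC59 (EME1, 1 of 16). When each summit counted only for its nearest gene, 65.7% of the members' strong pairs remained, against 78.6% for all protein-coding genes. At BRCA2, 0 of 8 strong libraries remained, and at RPA3 2 of 23.

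**Figure D5:**
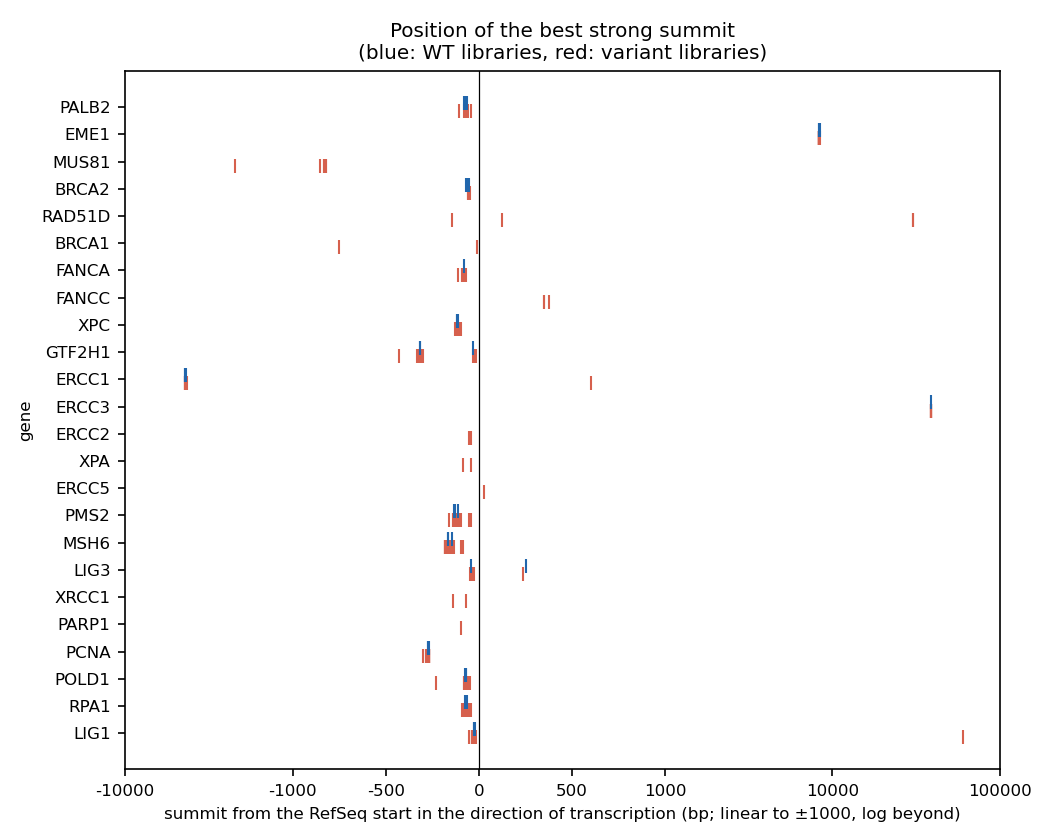
Distance of the best strong summit from the RefSeq start in the direction of transcription (bp, linear within 1000 bp and logarithmic beyond), for members with a start in the promoter table, with WT libraries in blue and variant libraries in red. Most genes have marks just upstream of 0, whereas EME1 and ERCC3 lie at the far end of the gene and ERCC1 lies 4355 to 4384 bp upstream in WT.

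The promoters were searched on both strands for CACGTG, the palindromic E-box, and for CATGTG. RefSeq (GRCh38.p14) gave a promoter for 33 members, spanning 250 bases before to 50 after the start. The palindromic E-box was present in 7 of the 33 (21.2%), beside 8.87% of 15812 promoters, 9.76% of the 82 given for the other repair and replication genes and 15.9% of promoters of genes strong in every WT library. It was found in BRCA2, GTF2H1, RPA1, LIG3, TERT, MCM2 and FANCC. The other E-box was present in 1 (3.03%), ERCC1, beside 8.43%. The palindromic E-box preceded by T was a subset of the first and was present in 4 (12.1%), beside 4.79%. TERT and MCM2 held the palindromic E-box and were strong in no library, whereas PCNA and POLD1, with the highest WT ranks, held neither E-box in this window.

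The 250 bases before the start are shown for the 4 members described in full that held an E-box, to set the motif beside the measured summit, with each E-box in capitals and the sequence 5′ to 3′ on the gene's own strand. They lie at chr11:18322317-18322566 (GTF2H1, plus), chr17:1829755-1830004 (RPA1, plus), chr19:45451548-45451797 (ERCC1, minus) and chr13:32315258-32315507 (BRCA2, plus).
GTF2H1: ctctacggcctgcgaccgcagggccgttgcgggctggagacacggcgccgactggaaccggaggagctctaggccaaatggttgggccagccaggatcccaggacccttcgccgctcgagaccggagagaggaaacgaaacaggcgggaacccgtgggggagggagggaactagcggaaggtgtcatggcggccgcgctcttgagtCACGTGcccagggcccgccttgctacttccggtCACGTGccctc
RPA1: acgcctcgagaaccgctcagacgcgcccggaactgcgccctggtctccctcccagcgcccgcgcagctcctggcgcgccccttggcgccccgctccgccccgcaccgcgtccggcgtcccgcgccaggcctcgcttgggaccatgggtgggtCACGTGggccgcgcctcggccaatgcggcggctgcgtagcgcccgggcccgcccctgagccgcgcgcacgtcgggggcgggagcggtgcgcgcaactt
ERCC1: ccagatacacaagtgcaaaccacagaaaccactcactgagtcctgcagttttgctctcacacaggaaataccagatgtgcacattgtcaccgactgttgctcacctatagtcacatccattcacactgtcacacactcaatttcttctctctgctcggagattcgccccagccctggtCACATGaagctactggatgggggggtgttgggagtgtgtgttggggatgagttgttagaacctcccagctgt
BRCA2: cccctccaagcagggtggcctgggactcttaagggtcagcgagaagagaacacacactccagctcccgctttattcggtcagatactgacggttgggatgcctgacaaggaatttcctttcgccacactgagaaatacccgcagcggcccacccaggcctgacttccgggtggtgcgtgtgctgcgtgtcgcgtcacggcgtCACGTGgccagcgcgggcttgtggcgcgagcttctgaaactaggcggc
At BRCA2 the E-box began 48 bases before the start, and the WT summits lay 52, 58 and 68 bases before it. At RPA1 the E-box began 98 bases before the start, with WT summits 76, 69 and 63 bases before it. GTF2H1 had 2 E-boxes, beginning 44 and 11 bases before the start. Its WT summits were 33 bases before the start in replicate 2 and 314 and 316 in replicates 1 and 3, nearer HPS5. In ERCC1 the motif appears as CACATG, the reverse complement, 72 bases before the start, whereas its strong WT summits were 4355 to 4384 bp away. The start used for ERCC1 is the outermost of its RefSeq span, so this sequence and distance do not describe starts further inside the gene.

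Of 96 other genes of the same pathways, 75 could be tested and 13 passed the same adjusted test (17.3%), beside 15% of all genes. The recombination mediator RAD52 was strong in every WT library and in no library of E260A, N278D, Y253A or rep217A (adjusted exact p = 0.00221). The replication licensing factor CDT1 was lost in E260A, N278D, Q261A, Y253A and rep263A (adjusted exact p = 0.00338), and the helicase subunit MCM7 in the first 4 of these (adjusted exact p = 0.00749). CDT1 and MCM7 were strong in every library of A264C, G244E and K243A, as were RAD52 and GTF2H1. GTF2H5, a small TFIIH subunit, was lost in Q261A, rep217A and rep263A. RAD51B was lost only in G244E of the 9 variants. Of the genes with the lowest p, those gained were GTF2H4, another TFIIH subunit, in E260A, G244E, K243A and rep217A, the shelterin subunit TINF2 in G244E and rep217A, and POLD4, a small polymerase delta subunit, in G244E, K243A and rep217A. Further pathway genes with higher p were gained in these 3 variants and are not named here. The depth of G244E, K243A and rep217A was the lowest of the MITF forms, and its part in these gains was not tested gene by gene. In Empty, GTF2H4, TINF2 and CDT1 were strong in 2 of 3 libraries. POLD4, MCM7 and RAD51B were strong in 1 Empty library, and RAD52 and GTF2H5 in 0.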

How the data were processed

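The 33 anti-HA CUT&Tag libraries were each deposited as a narrowPeak list on hg38. MACS2, Bowtie2 2.3.4.3 and bcl2fastq 2.20.0.422 are the tools in the submitters' processing notes. The MACS2 version and the use of a control library are not given in the sources used here. Each deposited peak carries the authors' fold enrichment (a ratio), the −log10 p and −log10 q of its summit, the summit offset and a score that was not used. Ties in −log10 q at rank 10000 were broken by −log10 p, then fold, then order. Gene ends came from RefSeq (GRCh38.p14), and starts from its promoter table. Group labels were permuted exactly, on a statistic that sums over groups the squared number of strong libraries divided by the libraries, one-sided for high values. Summit pileups were recovered from the deposited fold and p-value, and lists except Empty were thinned binomially to a background of 0.108 (5 draws, seed 1). The tests were checked on simulated data. Python 3.11.15, NumPy 2.4.6, pandas 2.3.3 and SciPy 1.17.1 were used.

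The members and lists were chosen with earlier results of these data known. Members are all named. In full are those strong in every WT library, those past the adjusted test and those lost or gained without overlap, and other pathway genes are named where lost or gained, at most 10, lowest p first. Some of the genes this rule takes are among items not reported here. Other settings were the 5000 or 20000 highest peaks, windows of 1000 or 20000 bp, gene bodies, nearest genes only, ranking by fold, ties kept or left out, the common depth, each replicate number left out, Empty left out and permutation within replicate numbers.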

Additional observations from a re-analysis of the deposited data

How the results depend on the processing

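The count of genes that differed among groups, 1516 with 6 members, became 3174 with 10 members when peaks were ranked by fold, 2647 with a 20000 bp window, 2349 with gene bodies and 86 with 0 members at the common depth (the first of 5 draws). With any replicate number left out it was 0 to 0 genes and 0 to 0 members, the smallest adjusted exact p being 0.118 to 0.157. The labels' replicate numbers did not pair the libraries: same-numbered libraries had a median correlation of 0.00472 (-0.0586 to 0.171) between their deviations from the group means, and 11 of 31 libraries correlated best with their own number. With permutation within the replicate block, 1011 genes and 5 members were called, RPA3 being the one that no longer passed.

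The gains of members summed over the variants, 3 in all, became 9 when ranked by fold, 5 with the 20000 bp window and 6 to 11 with a replicate left out. The 18 losses, summed in the same way, became 11 with nearest genes only, 2 when ranked by fold and 7 at the common depth.

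The differences from WT in strong members per library moved as follows. With the 5000 highest peaks they were -1 (E260A), -0.667 (G244E), -1.33 (N278D, Q261A and Y253A) and -1.17 (rep263A), and WT minus Empty was -0.333, so that G244E and Empty changed sign. With the 20000 highest they were -2.67 (E260A), 0 (G244E), -4.67 (Q261A), 0.167 (rep217A) and -1.33 (rep263A), and WT minus Empty was 11.3. Ranking by fold gave -1 (E260A), -3.67 (N278D), -2 (Y253A) and 0.5 (rep217A), and 0.667 for WT minus Empty. Nearest genes only gave -3.67 (E260A and N278D), 5 (G244E), 3.67 (K243A), -1.33 (Q261A) and 2.33 (rep217A), and 1.67 for WT minus Empty. Gene bodies gave -3.67 (E260A), 1.67 (G244E), -1.67 (K243A and Q261A), -3.33 (Y253A) and -1.33 (rep263A). The 1000 bp window gave -3 (E260A), -1 (Q261A) and -3.33 (Y253A). The 20000 bp window gave -3.67 (E260A) and 1.17 (rep217A), and 0.667 for WT minus Empty. The common depth gave -3.07 (E260A) and -2.87 (N278D). Keeping all ties gave 0.333 for WT minus Empty. The cause of these shifts was not tested. In A264C no setting moved the difference of -0.333 beyond the spread between replicates. Depth limits the Empty lists most, since their weakest strong summits rest on 2 tags.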
